A study of Mus musculus with 12 samples.

Results

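The transcriptional response of wild-type (WT) bone marrow-derived macrophages (BMMs) to interleukin-4 (IL-4) was described from the 6 WT RNA-seq libraries among the 12 of the series. BMMs are macrophages grown from mouse bone marrow cells, here for 6 days in 50 ng/ml macrophage colony-stimulating factor (M-CSF). Cells of each of 3 WT mice were left untreated (M0) or received 20 ng/ml IL-4 for 8 h (M2), so each mouse gave 1 M0 and 1 M2 library, which were compared within the mouse. The donors were 3 to 4 months old. WT mice were littermates without loxP-flanked Igf2bp2 alleles, some of which could carry the Cre recombinase expressed from Lyz2, a gene of myeloid cells, and the labels do not say which. The other 6 libraries came from IGF2BP2 KO mice, in which Lyz2-driven Cre removes exons 4 and 5 of Igf2bp2, and served here for the shared estimate of the spread and for 1 comparison.

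IL-4 is a cytokine of type 2 immunity, made by T helper cells, basophils and other cells. On macrophages it binds the IL-4 receptor alpha chain (Il4ra) together with the common gamma chain (Il2rg) or Il13ra1. Janus kinases bound to these chains then phosphorylate the transcription factor STAT6, which enters the nucleus and binds paired TTC and GAA half-sites. The resulting state is known as alternative, or M2, activation and is recognised in mouse cells by genes such as Retnla, Chil3 and Mrc1.

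Expression is given in TPM, a share of all transcripts corrected for transcript length, per library or as mean ± SD (n = 3 mice). Log2 fold changes of M2 over M0 are given ± SE with p-values adjusted by Benjamini-Hochberg over all genes tested. Total expected counts were between 24942666 and 29832430 in the M0 libraries and between 20011792 and 22744704 in the M2 libraries, so the M2 libraries were the shallower ones. The first principal component of the 6 libraries held 79% of the variance and separated M2 from M0, and the second, with 10.8%, ordered the mice alike in both states. Igf2bp2, the gene deleted in the KO mice, stood at 70.1, 58.3 and 42.1 TPM in M0 and 120.1, 127 and 95.9 TPM in M2 in the WT libraries (log2 fold change 1.11 ± 0.06 (SE), adjusted p = 3.1e-07). Every mouse thus had the higher Igf2bp2 level with IL-4, and the 2 groups did not overlap. In KO libraries the gene stood at 52.8 ± 3.91 TPM in M0 and 73.2 ± 2.07 TPM in M2; a value over all exons does not check a deletion of 2 of them. The macrophage markers Csf1r and Adgre1 were abundant in both states. Csf1r, the M-CSF receptor, went from 763 to 823 TPM and Adgre1, which encodes F4/80, from 525 ± 88.5 to 783 ± 58.9 TPM. Of further macrophage markers, Fcgr1 and Lyz2 fell, as given below, and another stood at only 2.23 TPM in M0 and 2.94 TPM in M2. Defining markers of other cells were at 0 in all 6 libraries for T cells (Cd3d, Cd3e, Cd3g), for B cells (Ms4a1, Pax5), for neutrophils (Ly6g) and for 7 of 9 markers of basophils, eosinophils and mast cells. The 11 neutrophil markers summed to between 41.9 and 80.4 TPM in M0 and between 30.7 and 50.8 TPM in M2, where 1 of 6 tested was called higher and 4 lower. The 8 T cell markers summed to between 53.9 and 80.3 TPM in M0 and between 82.1 and 94.9 TPM in M2, mostly from the IL-7 receptor gene Il7r (64.6 ± 13.3 to 86.02 ± 6.98 TPM, 0.49 ± 0.05). Of 3 tested, Il7r was called higher and Cd4, with 41 counts in M0 and 11 in M2, lower (-1.41 ± 0.53), a call lost under 7 of the alternatives. No other marker list passed 33.1 TPM in any library. Their part in the results was not tested. In such bulk libraries, fewer cells of a type and less RNA per cell cannot be told apart.

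IL-4 moved a large part of the transcriptome. Of 12846 genes tested, 7016 were called at an adjusted p under 0.05, or 54.6%, of which 3512 rose (27.3%) and 3504 fell (27.3%). With a 2-fold change also required, 728 genes were higher (5.67%) and 796 lower (6.2%). The largest changes were mostly increases: at 4-fold or more, 276 genes rose and 157 fell, and at 16-fold or more 76 rose and 18 fell. The 276 genes together took 0.281, 0.283 and 0.312% of all transcripts (TPM) in M0 and 2.39, 2.50 and 2.52% in M2. By contrast, the 157 genes called at least 4-fold lower made up 0.355, 0.380 and 0.408% in M0 and 0.060, 0.058 and 0.058% in M2. The M2 shares were similar among mice. Both sets were picked from these same libraries by their change, which partly fixes these shares. The even split of calls rested on the scaling: with library totals alone, 2468 genes rose and 4631 fell, and the median log2 fold change of all genes moved from -0.01 to -0.10.

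**Figure D1:**
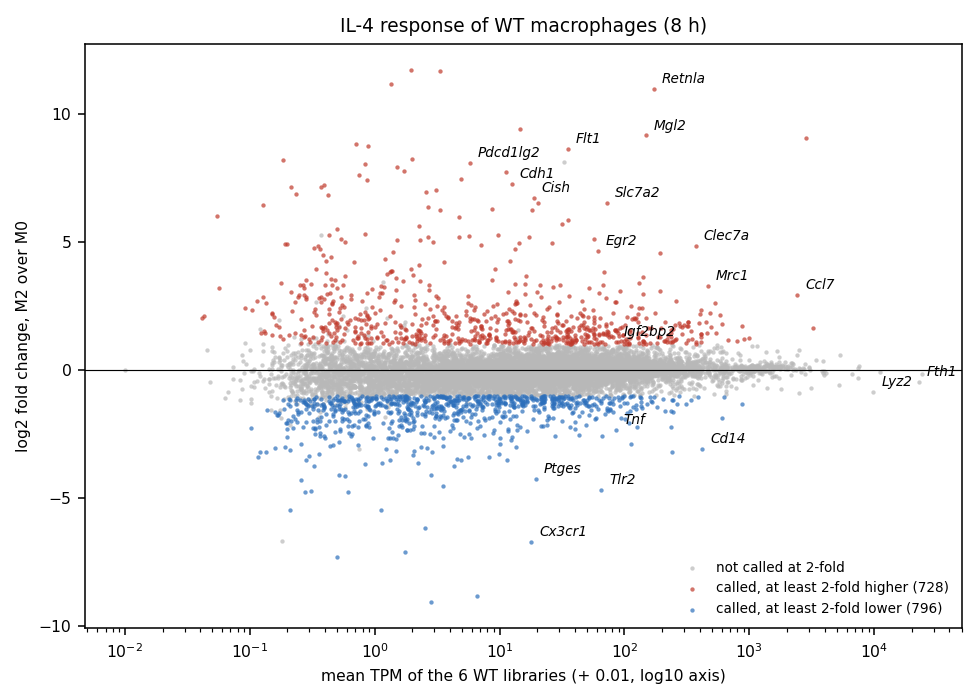
IL-4 response of all 12846 genes tested, with the mean TPM of the 6 WT libraries on a log10 x axis and the log2 fold change of M2 over M0 on the y axis. Grey points did not pass the 2-fold rule, red points are the 728 genes called at least 2-fold higher and blue points the 796 called at least 2-fold lower; the named increases reach 10.96 (Retnla) and the named decreases -6.70 (Cx3cr1).

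Genes that were nearly silent in M0 headed the increases. In 15 genes the mean level passed from under 1 TPM to at least 10 TPM, among them Retnla, Mgl2, Flt1, Cdh1 and Cish, while 3 genes went the other way, Cx3cr1, Icosl and the processed pseudogene Gm12191. Retnla (chr16:48842551-48844461), the secreted resistin-like molecule alpha, had 0, 0.12 and 0.39 TPM in M0 and 227, 295 and 507 TPM in M2 (log2 fold change 10.96 ± 0.18 (SE), adjusted p = 1.3e-10). Over the 3 M0 libraries it had only 4 counts, against 6166 in M2, so this SE is too narrow for the size of the change. The Retnla level was lowest in mouse 1 and highest in mouse 3 in both states.

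The list of effectors of alternative activation held 10 tested genes, of which 9 rose and 1 fell, with a median log2 fold change of 3.34 against -0.01 over all genes. This count, like that of every other list, stands beside the 27.3% of all genes called in each direction. Ccl24, an eosinophil chemoattractant, rose from 0.11 ± 0.15 to 22.2 ± 8.3 TPM (log2 fold change 7.71 ± 0.32). It had only 6 counts over the M0 libraries and 930 in M2, so this SE is too narrow. Ccl22, a ligand of CCR4, rose from 0.38 ± 0.051 to 3.67 ± 1.31 TPM (3.71 ± 0.29). Chil3, the chitinase-like protein Ym1, went from 3.86 ± 1.51 to 28.3 ± 10.9 TPM (2.96 ± 0.10). Its close relative Chil4 had 0 counts in M0 and 37 in M2, at least 16.5-fold higher against a floor of 3 counts over the group; reads of these near-identical genes may have been split between them. Igf1, a growth factor already abundant in M0, rose from 719.8 ± 76.6 to 1372 ± 80.5 TPM (0.92 ± 0.04) and the transglutaminase Tgm2 from 48.1 ± 12.5 to 83.3 ± 34.5 TPM (0.81 ± 0.09). The member that fell was F13a1, the clotting factor XIII A chain, from 2.74 ± 1.15 to 1.44 ± 0.74 TPM (-0.89 ± 0.12), a call that was lost without the mouse block (adjusted p = 0.058, edgeR). Several genes often listed beside these were at or near 0 after 8 h: Ear1, Ear6 and Cd209a stayed at or below 0.06 TPM in M2, Alox15 at or below 0.11 TPM and Ccl17 at or below 1.03 TPM, and none of these passed the filter on low counts.

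Surface molecules showed the same division between genes switched on and genes already present. Of 17 tested, 13 rose, 12 of them at least 2-fold, and 4 fell, none of them 2-fold (median 2.22). Mgl2, a C-type lectin for galactose-type sugars (CD301b), had 0.04, 0.39 and 1.08 TPM in M0 and 191, 258 and 440.3 TPM in M2 (log2 fold change 9.16 ± 0.16 (SE), adjusted p = 2e-10). Its order among mice was the same in both states, lowest in mouse 1 and highest in mouse 3. Another 3 lectins rose from higher starting levels: the beta-glucan receptor Clec7a (dectin-1) with 31.1, 23.2 and 23.6 TPM in M0 and 732, 785 and 648 TPM in M2, Clec10a with 11.2, 16.04 and 21.3 TPM in M0 and 307, 344 and 445 TPM in M2 and the mannose receptor Mrc1 with 75.9, 99.5 and 94.7 TPM in M0 and 796, 872 and 867 TPM in M2. Their log2 fold changes were 4.84 ± 0.10, 4.58 ± 0.10 and 3.28 ± 0.06, and in each the M2 libraries all lay above the M0 libraries. Pdcd1lg2, which encodes the PD-1 ligand PD-L2, had 3 counts in M0 and 640 in M2, a ratio of 284.7 scaled to library totals (95% exact counting interval 97.0 to 1384), while the other PD-1 ligand, Cd274, rose from 10.9 ± 2.33 to 34.6 ± 8.36 TPM (1.72 ± 0.08). Flt1, a receptor for vascular endothelial growth factor, rose from 0.17 ± 0.059 to 70.3 ± 2.25 TPM, and Cdh1, the adhesion molecule E-cadherin, from 0.21 ± 0.065 to 24.7 ± 3.73 TPM. Among the decreases were the scavenger receptors Msr1 (-0.97 ± 0.05) and Stab1 (-0.55 ± 0.05). The interleukin-1 receptor antagonist Il1rn also fell (-0.7 ± 0.09), though its product is no surface molecule. Cd163, the haemoglobin scavenger receptor, was near 0 in both states and was called lower, a call lost under 9 of the alternatives.

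**Figure D2:**
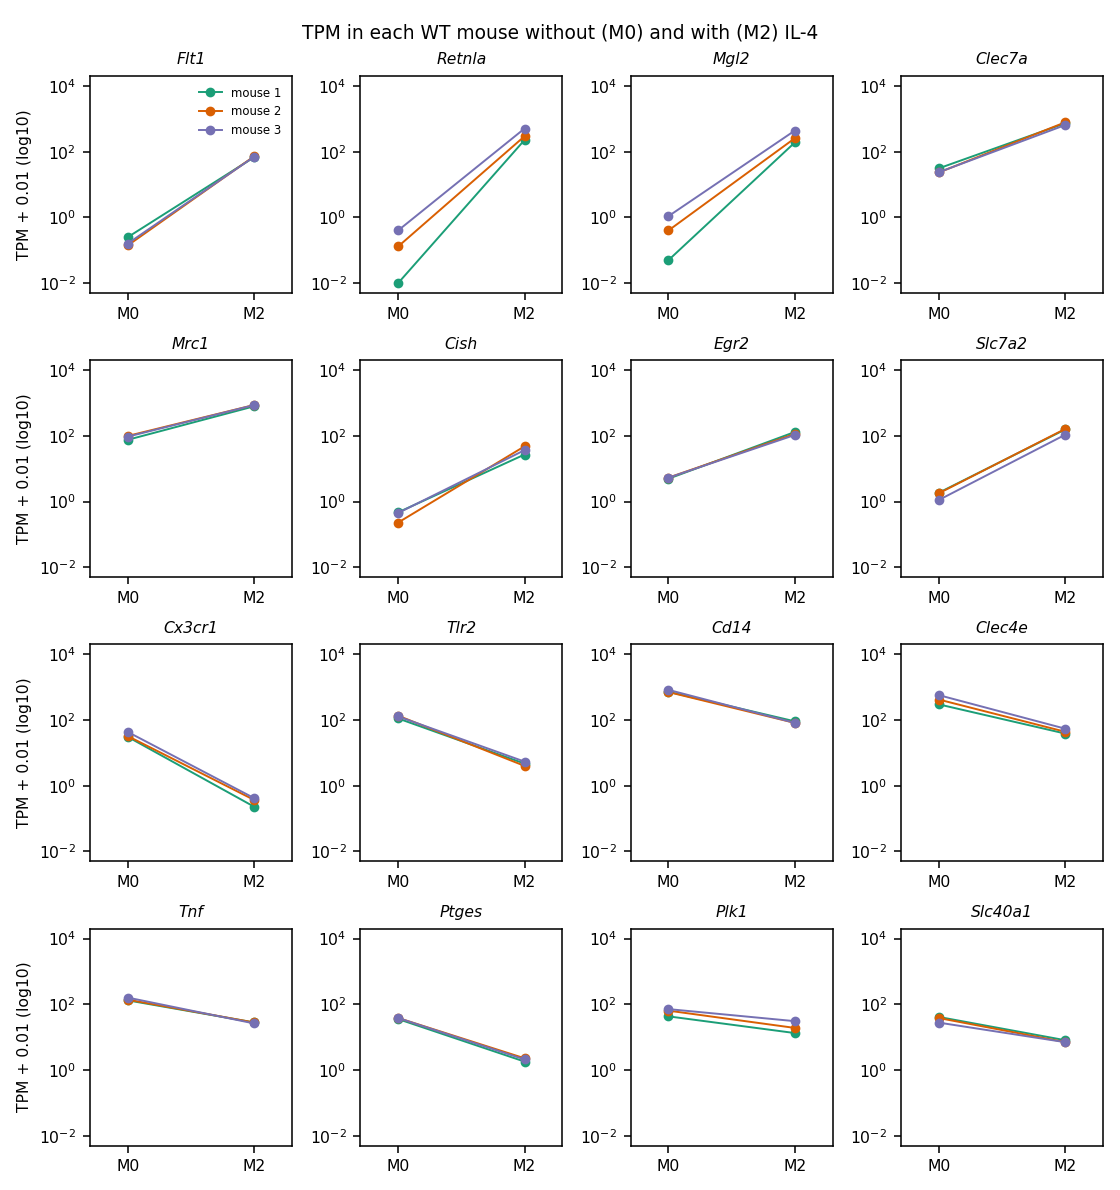
TPM of 16 named genes in each WT mouse, untreated (M0) and with IL-4 (M2), on a log10 axis after adding 0.01 so that zeros can be drawn, with 1 scale for all panels; each line joins the 2 libraries of 1 mouse. The 8 upper panels hold increases and the 8 lower panels decreases, and in each panel the 3 lines run the same way.

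Other genes with large increases belonged to varied groups. Among them were Msx3, a homeobox factor with 2 counts in M0 and 1137 in M2 (ratio 758.7, 95% exact counting interval 209.5 to 6272), Il4i1, an amino acid oxidase named for its induction by IL-4 (6.52 ± 0.16), Serpina3g, a protease inhibitor (6.23 ± 0.13), Hbegf, a heparin-binding growth factor of the EGF family (5.86 ± 0.09), and Il1rl1, the IL-33 receptor ST2 (5.68 ± 0.11). Il4i1 shares exon sequence with Atf5 and Tbc1d17 on the other strand, and whether strand was used in counting is not given in the sources used here. Il1rl1 had 0.81, 1.62 and 1.32 TPM in M0 and 46.2, 55.7 and 83.8 TPM in M2. Serpina3g and Il1rl1 were at or below 1.62 TPM in every M0 library and at or above 32.2 TPM in every M2 library.

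Members of the receptor and its signalling chain moved in both directions. Of the 8 tested members, 4 rose and 2 fell (median 0.09), or 4 and 4 with library totals alone. Il4ra rose from 33.2 ± 1.81 to 41.4 ± 4.399 TPM (0.38 ± 0.05) and the kinase Jak1 from 78.6 ± 8.82 to 91.8 ± 6.06 TPM (0.3 ± 0.05). Stat6 itself was not called, at 154 ± 7.92 to 143 ± 3.11 TPM (-0.05 ± 0.04, adjusted p = 0.34). Irs2, an adaptor that couples the receptor to phosphoinositide 3-kinase, rose 2-fold at a low level (0.89 to 1.82 TPM), and Il13ra1, the chain of the type 2 receptor, fell from 1.32 ± 0.32 to 0.34 ± 0.11 TPM (-1.9 ± 0.27).

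Inhibitors that act back on cytokine receptors diverged by member. Of the 14 tested, 7 rose and 3 fell, with a median of 0.04. The numbers were 6 and 7 with library totals alone. Cish had 0.46, 0.22 and 0.44 TPM in M0 and 27.1, 48.1 and 36.7 TPM in M2 (log2 fold change 6.72 ± 0.10 (SE), adjusted p = 1.1e-10). Socs2 had 0.32, 0.21 and 0.29 TPM in M0 and 17.1, 19.6 and 14.99 TPM in M2 (6.27 ± 0.23) and Socs1 had 3.28, 3.01 and 3.73 TPM in M0 and 91.7, 98.8 and 145 TPM in M2 (5.11 ± 0.09). In each of these 3 members all M2 libraries lay far above all M0 libraries. Socs3, the family member best known for restraining IL-6 receptor signalling, went the other way with 20.9, 26.8 and 24.2 TPM in M0 and 4.57, 4.7 and 5.43 TPM in M2 (log2 fold change -2.21 ± 0.08 (SE), adjusted p = 1.5e-08).

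Transcription factors of the alternative activation list rose in 14 of 18 and fell in 2 (median 1.02), or 12 and 4 with library totals alone. Egr2, an early growth response zinc finger factor, had 4.96, 5.34 and 5.31 TPM in M0 and 132, 115 and 107 TPM in M2 (log2 fold change 4.64 ± 0.06 (SE), adjusted p = 1.1e-10). Bhlhe40, a basic helix-loop-helix repressor, rose from 9.22 ± 0.66 to 129 ± 16.7 TPM (3.82 ± 0.07), the AP-1 family member Batf3 from 2.5 ± 0.77 to 30.1 ± 1.55 TPM (3.66 ± 0.17) and the basic leucine zipper factor Nfil3 from 8.897 ± 0.41 to 63.4 ± 1.34 TPM (2.9 ± 0.06). Irf4 rose by a similar log2 fold change (3.46 ± 0.20) but reached only 3.09 TPM. Pparg, the lipid-sensing nuclear receptor, rose by less than 2-fold (36.6 ± 2.85 to 59.8 ± 1.62 TPM). Cebpb, a basic leucine zipper factor of myeloid cells, fell from 187 ± 27.4 to 117 ± 9.53 TPM (-0.61 ± 0.06), and the Bhlhe40 relative Bhlhe41 fell too (-0.33 ± 0.09).

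To show where patterns of the STAT6 type lie in induced genes, the RefSeq promoter windows (build GRCm38.p6, 250 bases before to 50 after a listed transcription start) were searched for TTC and GAA separated by 4 bases (TTCNNNNGAA), the spacing STAT6 is known to prefer, and by 3 bases (TTCNNNGAA), which other STAT factors bind as well. Both patterns read the same on the 2 strands, and the spacings were counted separately. The table held windows for 9615 of the 12846 genes tested. Retnla, Pdcd1lg2 and Clec7a are printed as strongly induced genes with a 4-base spacing, and Cish as one with a pair of 3-base spacings; capitals mark the matches, and each sequence runs 5′ to 3′ on the gene's strand.
Retnla, chr16:48842359-48842658, plus strand: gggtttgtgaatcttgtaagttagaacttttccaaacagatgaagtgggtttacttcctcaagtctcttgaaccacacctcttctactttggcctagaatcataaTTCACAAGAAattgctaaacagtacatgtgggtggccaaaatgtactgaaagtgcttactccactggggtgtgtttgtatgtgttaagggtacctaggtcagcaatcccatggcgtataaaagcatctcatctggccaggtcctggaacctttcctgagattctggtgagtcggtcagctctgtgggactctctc
Pdcd1lg2, chr19:29410669-29410968, plus strand: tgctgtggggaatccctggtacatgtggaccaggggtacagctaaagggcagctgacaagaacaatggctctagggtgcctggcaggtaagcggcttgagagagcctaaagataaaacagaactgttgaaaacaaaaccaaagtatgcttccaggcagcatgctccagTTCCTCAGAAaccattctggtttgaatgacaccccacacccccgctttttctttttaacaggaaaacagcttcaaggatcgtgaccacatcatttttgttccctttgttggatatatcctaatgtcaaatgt
Clec7a, chr6:129472730-129473029, minus strand: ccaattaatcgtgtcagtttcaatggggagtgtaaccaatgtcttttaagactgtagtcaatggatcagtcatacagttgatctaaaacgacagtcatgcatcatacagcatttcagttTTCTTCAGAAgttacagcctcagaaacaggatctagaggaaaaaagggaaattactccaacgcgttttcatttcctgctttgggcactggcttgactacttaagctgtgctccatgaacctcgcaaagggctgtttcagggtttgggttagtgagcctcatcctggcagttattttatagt
Cish, chr9:107296409-107296708, plus strand: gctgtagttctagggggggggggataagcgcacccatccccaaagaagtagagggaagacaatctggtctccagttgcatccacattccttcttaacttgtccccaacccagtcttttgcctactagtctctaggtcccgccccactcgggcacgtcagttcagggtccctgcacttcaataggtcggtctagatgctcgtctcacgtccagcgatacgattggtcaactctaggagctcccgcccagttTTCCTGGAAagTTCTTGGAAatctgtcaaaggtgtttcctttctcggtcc

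The match TTCACAAGAA in Retnla begins 145 bases upstream of the listed start, TTCCTCAGAA in Pdcd1lg2 82 bases upstream and TTCTTCAGAA in Clec7a 131 bases upstream. In Cish, TTCCTGGAA begins at the listed start and TTCTTGGAA 11 bases after it. The 4-base spacing was present in 9.02% of the 266 windows of genes called at least 4-fold higher, in 10.07% of the 139 windows of genes called at least 4-fold lower and in 5.64% of all 12267 windows. The 3-base spacing was found in 9.77%, 11.51% and 6.87% of the same sets. Windows of strongly induced and strongly repressed genes thus held both patterns at like shares, each above the share in all windows; no test was made, and a match is not evidence of binding.

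In arginine and polyamine metabolism a transporter of arginine rose, while enzymes of polyamine metabolism changed both ways. Odc1, Amd1 and Smox fell and Sat1 rose. The transporter, Slc7a2, which carries cationic amino acids, had 1.85, 1.78 and 1.11 TPM in M0 and 157, 163 and 109 TPM in M2 (log2 fold change 6.54 ± 0.10 (SE), adjusted p = 1.1e-10). The other arginine transporter of the list, Slc7a1, was not called (28.4 to 27.4 TPM, adjusted p = 0.88). Of the 20 tested members 6 rose and 5 fell, with a median of 0.04, next to 27.3% of all genes called in each direction. With library totals alone 4 rose and 8 fell. The genes that fell included enzymes downstream of ornithine: Odc1, which makes putrescine, went from 297 ± 21.3 to 182 ± 3.601 TPM (-0.64 ± 0.05), Amd1, which supplies the aminopropyl donor, from 117 ± 5.48 to 68.2 ± 3.86 TPM (-0.72 ± 0.04) and spermine oxidase, Smox, from 70.97 ± 5.23 to 46.4 ± 2.23 TPM (-0.55 ± 0.04). Sat1, which acetylates spermidine and spermine for breakdown and export, rose from 144 ± 16.9 to 242 ± 29.4 TPM (0.8 ± 0.06). Nos2, the inducible nitric oxide synthase, was at or below 0.16 TPM in all 6 libraries.

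All chemokine ligands that rose were CC ligands, and most that fell were CXC ligands. Of 22 tested ligands, 8 rose and 8 fell (median -0.11), and 5 of the 6 that fell at least 2-fold were CXC ligands. The monocyte attractants rose from already high levels: Ccl7 had 494, 511 and 774 TPM in M0 and 4394, 4239 and 4143 TPM in M2 (2.94 ± 0.14) and Ccl2 had 1412, 1529 and 1991 TPM in M0 and 4872, 4804 and 4851 TPM in M2 (1.64 ± 0.10). In M2, the 3 mice had nearly the same level of each gene, although mouse 3 had the highest M0 level of both. Ccl12 rose from 24 ± 7.67 to 237 ± 35.4 TPM (3.38 ± 0.10) and Ccl8, a ligand for CCR8, from 0.3 ± 0.17 to 11.1 ± 1.61 TPM (5.22 ± 0.33). The neutrophil attractants Cxcl1 (-2.37 ± 0.25), Cxcl2 (-1.73 ± 0.26) and Cxcl3 (-1.8 ± 0.21), the CXCR3 ligand Cxcl10 (-2.36 ± 0.37) and the CXCR6 ligand Cxcl16 (-1.57 ± 0.10) fell.

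Among receptors for chemoattractants, 6 of 13 rose and 6 fell (median -0.08). Cx3cr1 (chr9:119901616-120069879), the fractalkine receptor, had 30.8, 32.6 and 43.5 TPM in M0 and 0.22, 0.36 and 0.41 TPM in M2 (log2 fold change -6.7 ± 0.10 (SE), adjusted p = 1.1e-10), the largest decrease of any protein-coding gene with at least 10 TPM. The formyl peptide receptors Fpr1 (from 6.78 to 0.27 TPM, -4.51 ± 0.36) and Fpr2 (4.72 to 0.54 TPM, -3.03 ± 0.27) fell from low levels and Cxcr4 fell from 8.05 ± 4.73 to 2.59 ± 0.44 TPM. Ccr1 rose from 23.5 ± 2.04 to 71.05 ± 9.604 TPM (1.66 ± 0.09) and Ccr3 from 7.66 ± 2.499 to 16.2 ± 6.11 TPM (1.14 ± 0.07). Cxcr2, also a neutrophil marker, was called higher at 0.36 TPM in M2.

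Receptors for microbial products moved in both directions. Of 23 tested Toll-like receptors and adaptors, 10 rose and 9 fell, and the median was 0.01, against 27.3% of all genes called in each direction. Tlr2 (chr3:83836272-83841767), the receptor for bacterial lipopeptides, had 112, 136 and 129 TPM in M0 and 4.72, 4.02 and 5.43 TPM in M2 (log2 fold change -4.66 ± 0.09 (SE), adjusted p = 4.2e-10). Its partner Tlr1 rose, with 16.6, 18.97 and 16.1 TPM in M0 and 67.7, 71.1 and 60.7 TPM in M2 (2.02 ± 0.06), and the other partner Tlr6 rose from 7.06 ± 0.25 to 12.1 ± 0.36 TPM (0.84 ± 0.07). For lipopolysaccharide, the receptor Tlr4 rose from 36.7 ± 3.82 to 81.5 ± 6.19 TPM (1.21 ± 0.07), whereas the co-receptor Cd14 had 726, 712 and 829.8 TPM in M0 and 91.4, 81.9 and 82.1 TPM in M2 (log2 fold change -3.08 ± 0.08 (SE), adjusted p = 1.3e-09). Tlr8, an endosomal RNA receptor, rose from 20.7 ± 4.38 to 81.7 ± 3.55 TPM (2.08 ± 0.08). Irak3 (-1.42 ± 0.06) and Irak2 (-1.18 ± 0.06), kinase-family members of the shared pathway, fell. Clec4e (Mincle), a receptor for mycobacterial glycolipid that is no Toll-like receptor, had 300.4, 421 and 574 TPM in M0 and 38.8, 44.01 and 54.6 TPM in M2 (log2 fold change -3.21 ± 0.06 (SE), adjusted p = 3.7e-10).

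Inflammatory cytokines and NF-kB targets fell in 14 of 28 tested, 12 of them at least 2-fold, and rose in 8, with a median of -0.81. Tnf had 131, 138 and 159.6 TPM in M0 and 27.9, 27.9 and 26.1 TPM in M2 (log2 fold change -2.32 ± 0.09 (SE), adjusted p = 1.9e-08). The nuclear inhibitor-like factor Nfkbiz fell from 8.39 ± 0.77 to 0.75 ± 0.09 TPM (-3.46 ± 0.15), the pathway's inhibitor Nfkbia from 271 ± 23.4 to 95.9 ± 1.96 TPM (-1.43 ± 0.06) and the adhesion molecule Icam1 from 141 ± 10.7 to 55.9 ± 5.101 TPM (-1.27 ± 0.06). Members that rose were Nfkb1, which encodes the p105 precursor, from 76.7 ± 4.79 to 201 ± 11.3 TPM (1.47 ± 0.05), the costimulatory receptor Cd40 from 17.4 ± 2.07 to 53.9 ± 1.404 TPM (1.62 ± 0.08), Il10, an anti-inflammatory cytokine, from 5.05 ± 1.27 to 11.6 ± 2.67 TPM (1.27 ± 0.11), and Ptgs2 from 5.04 ± 0.26 to 10.9 ± 1.65 TPM (1.17 ± 0.10). Il6 stayed at or below 1.02 TPM and Il12b at or below 0.1 TPM in all 6 libraries, Il12a was listed at 0, and none of these passed the filter on low counts.

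Most of the tested interferon-stimulated genes fell. Of 51 tested, 31 fell and 9 rose (median -0.37), against 27.3% of all genes in each direction. With library totals alone 33 fell and 5 rose. Ifit3 fell from 8.67 ± 1.45 to 2.11 ± 1.01 TPM (-1.97 ± 0.19) and Ifit1 from 6.15 ± 0.35 to 2.31 ± 0.84 TPM (-1.35 ± 0.21), while Mx1 (3.09 to 9.69 TPM, 1.68 ± 0.19) and Usp18 (4.63 to 11.7 TPM, 1.4 ± 0.11), genes of the same programme, rose. Usp18 encodes an inhibitor of interferon receptor signalling. For MHC class II presentation, Cd74, the invariant chain, rose from 47.4 ± 14.7 to 181 ± 44.2 TPM (2.01 ± 0.10), but H2-Aa, H2-Ab1 and H2-Eb1, which encode the class II chains, were not called (log2 fold changes 0.2, -0.15 and 0.32). The regulator Ciita was called higher but remained at 0.16 TPM in M2, and that call was lost under 6 of the alternatives.

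Genes of mitosis fell together. All 56 members of the mitosis list were called lower, 40 of them at least 2-fold. Their log2 fold changes ran from -1.54 to -0.38 around a median of -1.14, against 27.3% called lower among all genes. The count was also 56 under the alternatives in which the list was recounted, which leave out the test against a fold of 2. Prc1, which bundles microtubules of the midzone, had 90.99, 117 and 119 TPM in M0 and 23.5, 36.2 and 48.99 TPM in M2 (log2 fold change -1.54 ± 0.09 (SE), adjusted p = 4.5e-07), and Plk1, a mitotic kinase, had 42.8, 63.9 and 71.2 TPM in M0 and 13.3, 19.03 and 30.6 TPM in M2 (-1.48 ± 0.08). The cyclins Ccna2 and Ccnb2 went from 135 ± 23 to 49.8 ± 17.7 TPM and from 85.6 ± 28.1 to 31.8 ± 15.1 TPM. In none of these 4 genes did an M2 library reach the lowest M0 library.

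DNA replication genes fell by less. Of 49 tested, 43 fell, 4 of them at least 2-fold, 0 rose and 6 were not called (median -0.53). Thymidine kinase, Tk1, fell from 204 ± 15.2 to 72.1 ± 8.77 TPM (-1.49 ± 0.05), the ribonucleotide reductase subunit Rrm2 from 219.8 ± 15.4 to 103 ± 14.5 TPM (-1.06 ± 0.07) and E2f2 from 21.6 ± 1.19 to 9.08 ± 2.15 TPM (-1.2 ± 0.07). The licensing factor Cdt1 was not called (from 78.8 to 72.2 TPM, adjusted p = 0.29). Cell cycle inhibitors did not move as a block: Cdkn1a (p21) rose from 452 ± 2.81 to 701 ± 55.1 TPM (0.69 ± 0.06), whereas Cdkn2c (p18) fell from 75.98 ± 13.6 to 28.2 ± 8.95 TPM (-1.42 ± 0.06), Cdkn2d (p19) from 60.6 ± 16.03 to 22.9 ± 6.67 TPM (-1.34 ± 0.08) and Cdkn1b (p27) from 17.02 ± 1.61 to 8.55 ± 1.29 TPM (-0.98 ± 0.06). Btg1, an antiproliferative factor, fell from 58.99 ± 4.39 to 17.7 ± 2.14 TPM (-1.68 ± 0.05), and the G1 cyclin Ccnd1 changed by only 0.14 ± 0.04.

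**Figure D3:**
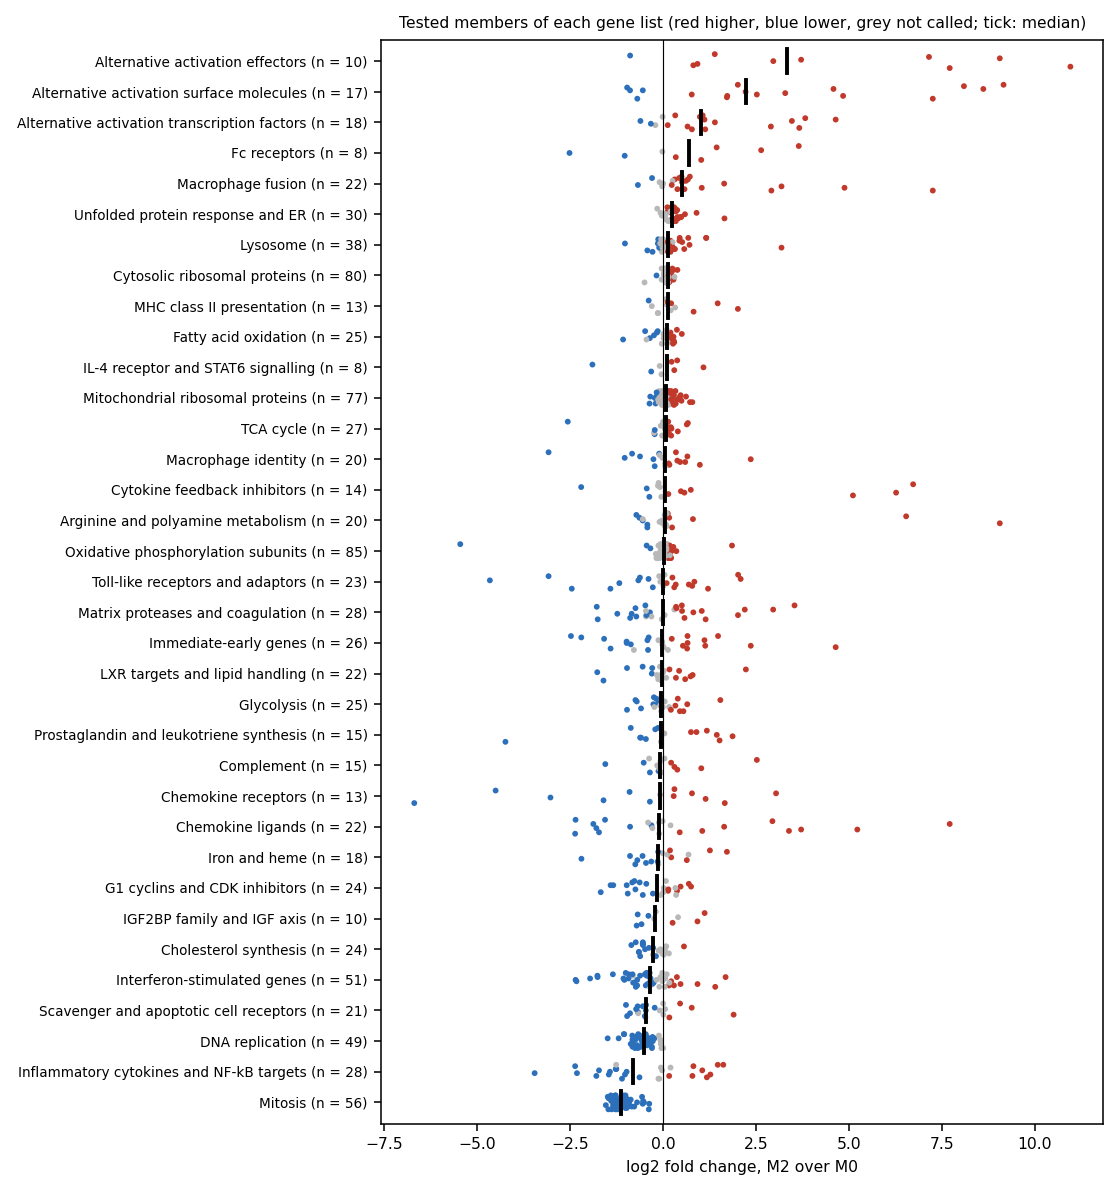
Log2 fold changes of M2 over M0 for the tested members of 35 gene lists, 1 row a list and 1 point a gene, ordered by the list median (black tick); red and blue points were called higher and lower, grey points were not called. The mitosis row lies wholly below 0 with a median of -1.14, and the effectors of alternative activation have the highest median, 3.34.

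Genes of lipid and iron handling moved in both directions. Cholesterol synthesis fell in 13 of 24 genes and rose in 1, none of them 2-fold (median -0.27). Of the 2 main exporters of cholesterol, Abcg1 rose from 16.1 ± 3.45 to 72.1 ± 7.59 TPM (2.22 ± 0.11) and Abca1 fell from 17.3 ± 5.92 to 4.77 ± 0.8 TPM (-1.77 ± 0.10). Nr1h3, the LXR alpha receptor that regulates both, fell from 13.8 ± 2.42 to 4.7 ± 0.11 TPM (-1.61 ± 0.10). In iron handling, the transferrin receptor Tfrc rose from 137 ± 21.2 to 419.7 ± 24.7 TPM (1.71 ± 0.05), and the iron exporter ferroportin, Slc40a1, had 41.1, 38.1 and 27.6 TPM in M0 and 8.04, 7.05 and 7 TPM in M2 (log2 fold change -2.2 ± 0.08 (SE), adjusted p = 1.2e-08). The haem oxygenase Hmox1 fell from 1733 ± 221 to 1031 ± 164 TPM (-0.7 ± 0.08). The ferritin subunits Fth1 and Ftl1, the most abundant transcripts named here, fell from 27119 ± 2163 to 18784 ± 490.1 TPM and from 25853 ± 1038 to 22276 ± 998 TPM; Ftl1 missed the threshold under 1 alternative.

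Genes of the secretory pathway rose by small amounts, and those of the lysosome were divided. In the unfolded protein response and endoplasmic reticulum list, 21 of 30 genes rose and 0 fell (median 0.24). With library totals alone 17 rose and 3 fell. The disulphide isomerase Pdia4 was the only member past 2-fold, from 97.5 ± 2.26 to 293 ± 17.1 TPM (1.65 ± 0.04), and the chaperone Hspa5 rose from 681 ± 27.1 to 987 ± 81.7 TPM (0.59 ± 0.06). Of 38 lysosomal genes 19 rose and 6 fell, or 14 and 13 with library totals. Atp6v0d2, a proton pump subunit also used as a marker of fused macrophages, had 16.1, 10.1 and 6.85 TPM in M0 and 102, 97.5 and 79.6 TPM in M2 (3.18 ± 0.12), and the pump subunit Atp6v1b2 rose from 429.8 ± 31.4 to 923 ± 70.5 TPM (1.16 ± 0.04). The cathepsin Ctsc fell from 133 ± 18.4 to 63.3 ± 6.05 TPM (-1.03 ± 0.06), and Ctsd fell by 0.14 on the log2 scale. Genes of macrophage fusion rose in 16 of 22 and fell in 2 (median 0.50), among them the integrin Itgb3, from 0.48 ± 0.07 to 13.6 ± 1.31 TPM (4.88 ± 0.11), and Ocstamp, from 0.5 ± 0.17 to 3.597 ± 0.21 TPM (2.91 ± 0.17), besides Cdh1.

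Most genes of central energy metabolism changed by less than 2-fold. Oxidative phosphorylation subunits rose in 20 of 85 and fell in 3 (median 0.02), next to 27.3% of all genes called in each direction, but with library totals alone 4 rose and 17 fell, and without the mouse block 10 rose. Without mouse 1, 2 or 3 the number higher was 8, 6 and 21. In this list 2 genes were called at least 2-fold, both at low levels and named after their values were seen. Cox6a2 went from 0.54 to 1.87 TPM (1.85 ± 0.51), and Cox6c2, a processed pseudogene whose reads may belong to its parent gene, had 1.05, 0 and 5.49 TPM in M0 and 0.11, 0 and 0 TPM in M2 (-5.46 ± 1.71), a call that was lost under 4 of the alternatives. For cytosolic ribosomal proteins (28 of 80 higher and 1 lower, median 0.12) the numbers became 5 and 1 with library totals. For mitochondrial ribosomal proteins (26 of 77 higher and 6 lower, median 0.09) they became 12 and 14. Without mouse 1, 2 or 3 the numbers higher were 5, 5 and 47 for the cytosolic and 14, 15 and 27 for the mitochondrial proteins. Glycolysis genes were split, 7 higher and 9 lower of 25, or 7 and 14 with library totals alone. Pfkfb4, which sets the level of a glycolytic activator, rose from 18.5 ± 1.59 to 49.98 ± 2.31 TPM (1.54 ± 0.07), and the lactate transporter Slc16a3 fell from 71.1 ± 11.5 to 33.9 ± 6.39 TPM (-0.97 ± 0.05). In the TCA cycle list, 12 of 27 rose and 3 fell (6 and 6 with library totals), and without mouse 2 the number higher was 7. The single large change there was Acod1, which diverts aconitate to itaconate, with 65.3, 105 and 174 TPM in M0 and 16.1, 18.7 and 17.1 TPM in M2 (log2 fold change -2.57 ± 0.21 (SE), adjusted p = 3.9e-06). Of fatty acid oxidation genes, 10 of 25 rose, none 2-fold, and 6 fell. The acyl-CoA synthetase Acsl1 fell from 71.3 ± 10.1 to 32.7 ± 1.56 TPM (-1.08 ± 0.06).

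Counted in transcripts, most of the large changes were in genes that were abundant before. Beside Ccl7 and Ccl2, large gains in mean TPM were those of the galectin Lgals3 (4383 ± 334 to 6311 ± 111 TPM), the lipid scavenger receptor Cd36 (1897 ± 252 to 3087 ± 247 TPM), the sorting nexin Snx5 (418 ± 30.5 to 1320.4 ± 63.3 TPM), the chaperone Hspa8 (2983 ± 226 to 3836 ± 334 TPM), the metalloprotease Adam8 (2005 ± 231 to 2826 ± 331 TPM), the clathrin adaptor subunit Ap2m1 (593 ± 17.4 to 1396 ± 31.7 TPM) and the translation factor Eif5a (1273 ± 16.8 to 2045 ± 99.3 TPM). Of these 7, only Snx5 and Ap2m1 rose at least 2-fold (log2 fold changes 1.73 ± 0.04 and 1.26 ± 0.04). The 10 largest losses were those of the ferritin subunits, of Lyz2, lysozyme, with 11048, 12070.2 and 15401 TPM in M0 and 6126, 6671 and 7725 TPM in M2, and of Spp1, osteopontin (6423 ± 546 to 4095 ± 282 TPM), Tmsb4x, thymosin beta 4 (8298 ± 340.5 to 6427 ± 161 TPM), Prdx1, a peroxiredoxin (3947 ± 135 to 2311 ± 57.7 TPM), Vim, vimentin (3303 ± 119 to 1726 ± 124 TPM), Ifitm3, an interferon-induced membrane protein (2261 ± 239 to 1295 ± 91.5 TPM), Ctsd (7159 ± 505 to 6223 ± 209 TPM) and Ywhah, a 14-3-3 protein (1245 ± 71.2 to 487 ± 9.76 TPM). Of these only Ywhah fell by more than 2-fold (-1.33 ± 0.04). Lyz2 is also the locus from which Cre is driven in the KO line.

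The other large decreases named here are the largest among protein-coding genes with at least 10 TPM in M0. Ptges, the inducible prostaglandin E synthase, had 35.5, 38.3 and 38.2 TPM in M0 and 1.79, 2.26 and 2.08 TPM in M2 (log2 fold change -4.24 ± 0.10 (SE), adjusted p = 7.8e-10). Icosl, the ligand of the T cell costimulator ICOS, fell from 10.2 ± 1.34 to 0.94 ± 0.47 TPM (-3.38 ± 0.19). Cav1, the caveola protein caveolin-1, fell from 14.97 ± 2.05 to 1.47 ± 0.6 TPM and Gpr84, a receptor for medium-chain fatty acids, from 198 ± 25.4 to 25.9 ± 2.96 TPM. Il17ra, the IL-17 receptor, had 24.5, 22.7 and 17.97 TPM in M0 and 3.7, 3.63 and 2.98 TPM in M2, and the SD of its log2 ratio among mice, 0.03, was far below the median of 0.191 over the genes called at least 2-fold. The others were Rnf183 (-3.49 ± 0.15), Carmil1 (-3.27 ± 0.12), Spaca6 (-3.0 ± 0.15), the differentiation inhibitor Id3 (-2.86 ± 0.15), Klhl6 (-2.66 ± 0.17) and Pram1 (-2.65 ± 0.24); exons of Pram1 overlap those of Gm20507 on the same strand, so its reads are uncertain.

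The 3 mice responded alike for most genes. Of the 1524 genes called at least 2-fold, 1516, 1518 and 1521 moved in the called direction in mice 1, 2 and 3, a count that the calls themselves partly fix, and the SD of the log2 ratio among mice exceeded 0.5 in 88 of them. The 5 genes of at least 10 TPM with the largest SD among mice included Cxcl2, with 80.2, 99.7 and 145 TPM in M0 and 40, 31.3 and 19.9 TPM in M2, Cxcl10, with 26.4, 30.01 and 26.6 TPM in M0 and 9.42, 4.83 and 1.48 TPM in M2, and Saa3, an acute-phase protein, with 11.6, 10.6 and 22.04 TPM in M0 and 8.97, 5.16 and 5.49 TPM in M2. In Cxcl2, M0 was highest and M2 lowest in mouse 3, and its within-mouse log2 ratio was -0.88, -1.56 and -2.81 in mice 1, 2 and 3. Cxcl10 started from nearly equal levels and differed among mice in M2. The other 2 were Gm12191, a processed pseudogene, and Sap18b, which has a close copy in Sap18, and reads of both may be shared with near-identical sequences. Acod1 showed a related pattern, with M0 levels that differed between mice more than its M2 levels did.

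**Figure D4:**
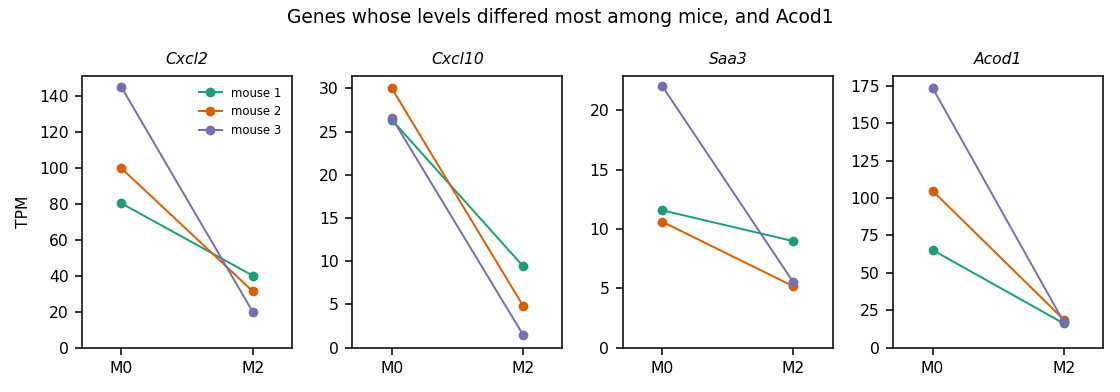
TPM of Cxcl2, Cxcl10, Saa3 and Acod1 in M0 and M2 for each of the 3 WT mice on linear axes, each starting at 0. Points of 1 mouse share a colour and a line; in Cxcl2 the mouse with the highest M0 level, 145 TPM, has the lowest M2 level, 19.9 TPM.

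IGF2BP2 and its paralogue were followed because the former is the one targeted in the KO line. Igf2bp2 (chr16:22059009-22163299) rose in all 3 mice, as given above, while Igf2bp3 was at 6.86 ± 0.34 to 7.82 ± 0.3 TPM (0.25 ± 0.08, adjusted p = 0.024), a call that was lost under 7 of the alternatives. The response of KO cells differed from that of WT cells in 1003 of 12846 genes (7.81%), a number that fell to 416 without the mouse block and to 215 without WT mouse 2. For Mrc1 the log2 fold change was 3.97 ± 0.06 in KO and 3.28 ± 0.06 in WT (difference 0.68 ± 0.08, adjusted p = 0.0028). With 3 mice, the smallest two-sided p of an exact paired permutation test on 1 gene is 0.25, so the calls rest on the model across all genes.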

How the data were processed

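RNA of bone marrow-derived macrophages was sequenced by the authors as poly(A) libraries, made with a directional (strand-keeping) kit, with single-end reads. Reads were processed with the Grape-nf pipeline against GRCm38/mm10, and the submitters' notes name FastQC 0.11.2 and DESeq2 1.40.2. The counter, its strand setting and the annotation release are not given in the sources used here. The deposited tables give, per library and gene, expected counts (estimated read counts that need not be whole) and TPM (transcript shares with a fixed total per library, scaled by effective length), both deposited as the authors' pipeline wrote them, together with effective length, a score in bases. Tables of the authors' own comparisons, which hold fold changes and p-values, were not used. Of 38887 genes, 37570 were matched by identifier to a symbol of GENCODE M21.

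Expected counts were rounded to whole numbers and fitted with edgeR 4.0.16 (R 4.3.3): TMM normalization, filterByExpr by group, quasi-likelihood test, all 12 libraries, the mouse as a block, and 1 IL-4 coefficient each for WT and KO, with 4 residual degrees of freedom and a biological coefficient of variation of 5.16%. All groups thereby shared 1 estimate of the spread. Log2 fold changes are M2 minus M0, their SE was taken as the fold change over the square root of the F statistic, and p-values were adjusted by Benjamini-Hochberg over 12846 genes; calls were made at an adjusted p under 0.05, and rose or fell is used of called genes only. Values in TPM are given per library or as mean ± SD (n = 3) and were not tested. Pairing came from the mouse numbers in the labels: deviations from the group mean correlated between M0 and M2 of the same mouse at 0.447, 0.164 and 0.449, and between different mice at -0.414 to 0.034. Ratios and floors for genes with 0 to 3 counts cover counting error only. For other genes with few counts in a group, such as Retnla, Ccl24 and Ccl8, the SE is too narrow.

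Named genes were the 15 protein-coding genes with the largest change in each direction (called, same direction in 3 mice, at least 10 TPM in the higher group), the 10 largest gains and losses in TPM, up to 4 called members per list and direction, members that define a list, the 5 most variable among mice, and Igf2bp2, Igf2bp3 and Lyz2. The members and the gene lists were chosen with earlier results of these data known; some list members, among them Il7r and Cd4, were named after their values were seen. Some genes that these rules pick are not reported here. Alternatives were DESeq2 1.42.0, RLE and library-total scaling, other filters, no replicate block, WT libraries only, limma 3.58.1 (trend) on log2(TPM + 1) and log2(TPM + 0.1), protein-coding genes only, thinning to the smallest library total, a test against a fold of 2, and leaving out each WT mouse.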

Additional observations from a re-analysis of the deposited data

Results flagged for a closer look

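Among the 175 genes named here and in the other observations, many of them chosen for a large IL-4 response, that response differed for 49 between KO and WT cells at an adjusted p under 0.05 (edgeR's quasi-likelihood test of the difference of the log2 fold changes, 3 mice a group), where 7.81% of all genes tested did, and each is given as the KO minus WT difference. This is a test in 1 series of 6 mice, and 215 genes in place of 1003 passed it without WT mouse 2; of 635 values recomputed for these 49 genes under the alternatives, 128 lost the call.

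Among receptors and surface molecules, the increase was larger in KO cells for Mrc1 (3.28 in WT and 3.97 in KO, difference 0.68), Clec10a (0.84), Itgb3 (0.93), Fcgr2b (1.05) and Cd40 (0.88), and smaller for Ccr1 (1.66 in WT and 0.61 in KO, difference -1.05), Ccr3 (-0.56), Tlr4 (1.21 in WT and 0.46 in KO, difference -0.74) and Tlr8 (-0.67). The decrease was smaller in KO cells for Tlr2 (-4.66 in WT and -3.60 in KO, difference 1.07), Clec4e (0.72), Gpr84 (0.84), Il17ra (0.63), Plaur (0.39) and Icam1 (0.92), and larger for Msr1 (-0.26). Il7r differed by -0.47. Products and enzymes with a larger increase were Chil3 (2.96 in WT and 4.15 in KO, difference 1.19), Slc7a2 (0.78) and Ptgs2 (0.84), and those with a smaller increase were F10 (-0.64), Mmp12 (-0.38), Hspa5 (-0.34), Atp6v1b2 (-0.22) and Igf2bp2 itself (-0.55). Hspa8 had values of 0.40 in WT and -0.10 in KO, difference -0.50.

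In the inflammatory and signalling group, the decrease was smaller in KO cells for Tnf (-2.32 in WT and -1.51 in KO, difference 0.81), Cxcl3 (1.1), Acod1 (1.22), Nfkbia (0.52), Irak2 (0.34), Socs3 (-2.21 in WT and -0.83 in KO, difference 1.38), Id3 (1.62), F13a1 (0.64) and Acsl1 (0.45), and larger for Ifit3 (-1.18). Nfkb1 rose by more (0.41). Cebpb had -0.61 in WT and 0.20 in KO, difference 0.81, and Odc1 had -0.64 in WT and 0.03 in KO, difference 0.67. Stat6, not called in WT cells, differed by -0.23. Among the rest, Slc40a1 (-0.67), Hmox1 (-0.56), Slc16a3 (-0.47) and E2f2 (-0.45) fell by more in KO cells, Tk1 (0.33), Cdkn2c (0.34) and Ccnb2 (0.66) by less, and Cdt1 differed by -0.32. The fitted difference of the pseudogene Gm12191 (17.88) is set by groups at 0 and is no measure of size.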

How the results depend on the processing

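The count of genes called for IL-4 in WT cells, 7016, lay between 5619 and 7099 under the alternatives that kept all mice, and the count called at least 2-fold, 1524, moved by more than 1.5 times under only 2 of them, to 931 by limma on log2(TPM + 1) and to 847 by a test against a fold of 2. Without WT mouse 1, 2 or 3 the first count ranged from 5539 to 6394, the second from 1433 to 1538 and the count of KO differences from 215 to 1006. The 1003 KO differences became 416 without the replicate block and 248 and 264 by limma on log2(TPM + 1) and log2(TPM + 0.1); the block moved the other 2 counts to 6428 and 1502. Of 1003 genes, 359 had the higher and 644 the lower response in KO cells; with library totals alone the split was 469 and 483, and by limma 112 and 136 or 116 and 148. With limma, 2457 or 2452 genes rose and 3661 or 3643 fell in WT cells. Of 35 list medians, 9 changed sign with library totals, none of them over 0.095 in size. The causes were not tested. Of 175 genes named, 168 were called, and 2378 of 2435 recomputed values stayed on the same side of the threshold, 50 lost the call, 7 gained it and 0 turned direction; the most frequent losses were those of Cd163 (9), Cd4 (7), Igf2bp3 (7), Ciita (6) and Sap18b (6), then Ccnd1 and Cox6c2 (4 each); Bhlhe41, Cox6a2, Csf1r, F13a1, Ftl1, Gm12191 and Saa3 lost it once. For the KO differences, of 635 recomputed values of the 49 genes, 507 stayed past the threshold, 128 lost the call and 0 turned direction. Counts of 3 or fewer called members in a list moved by at most 2 when a mouse was left out. Cd163 had 57 counts in M0 and 22 in M2 and Ciita 15 and 30, which limits what the depth can show for them.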

Other observations

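Receptors for antibody changed among themselves. Of the 8 tested Fc receptor genes 5 rose and 2 fell, where 27.3% of all genes were called in each direction; the other lists given here have the same background. The inhibitory receptor Fcgr2b had 13.6, 22.8 and 30.1 TPM in M0 and 272, 260.4 and 245 TPM in M2 (log2 fold change 3.65 ± 0.19 (SE), adjusted p = 1.7e-07) and the activating receptor Fcgr3 rose from 255 ± 22.8 to 661 ± 36.97 TPM (1.44 ± 0.05). The high-affinity receptor Fcgr1 fell from 75.1 ± 6.895 to 35.2 ± 6.15 TPM (-1.04 ± 0.07). Fcrl1 fell from 12.9 ± 1.26 to 2.17 ± 0.17 TPM (-2.52 ± 0.11), and the neonatal Fc receptor Fcgrt rose from 41.9 ± 0.19 to 81.5 ± 3.598 TPM (1.02 ± 0.05).

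In the synthesis of prostaglandins and leukotrienes, 6 of 15 tested genes rose and 7 fell. The cyclooxygenase Ptgs1 had 82.5, 98.4 and 99.9 TPM in M0 and 321, 326 and 337 TPM in M2 (log2 fold change 1.87 ± 0.06 (SE), adjusted p = 6.1e-09) and the thromboxane synthase Tbxas1 rose from 132 ± 20.7 to 339 ± 17.4 TPM (1.44 ± 0.05), while Ptges, as described above, fell. Matrix proteases and clotting factors were also divided, 12 higher and 10 lower of 28. Mmp13, a collagenase, rose from 32.8 ± 2.35 to 247 ± 50.6 TPM (2.96 ± 0.12), the elastase Mmp12 from 523 ± 43.1 to 1069 ± 39.9 TPM (1.14 ± 0.05) and coagulation factor X, F10, from 1.45 ± 0.29 to 16.1 ± 1.22 TPM (3.53 ± 0.10). Plaur, the urokinase receptor, fell from 195 ± 12.7 to 78.99 ± 2.17 TPM (-1.23 ± 0.06).

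Scavenger and apoptotic cell receptors fell in 11 of 21 and rose in 4 (median -0.47), and complement genes rose in 5 and fell in 4 of 15 (median -0.07). Without mouse 1, 2 or 3 the scavenger receptors called higher numbered 2, 3 and 2 and the complement genes called lower 4, 2 and 2. Immediate-early genes rose in 10 and fell in 10 of 26: Fosl2 rose from 19.1 ± 1.63 to 93.7 ± 8.08 TPM (2.36 ± 0.04) and Fos fell from 207 ± 29.9 to 43.3 ± 5.98 TPM (-2.2 ± 0.09), both members of AP-1. In the macrophage identity list, 9 of 20 genes rose and 7 fell, and the shared beta chain of the GM-CSF, IL-3 and IL-5 receptors, Csf2rb, rose from 139.5 ± 7.01 to 683 ± 13.3 TPM (2.35 ± 0.06). The G1 list had 6 higher and 12 lower of 24, the list of LXR targets and lipid handling 7 higher and 6 lower of 22, the iron and haem list 5 and 9 of 18, the MHC class II list 5 and 1 of 13, and the IGF2BP and IGF list 3 and 4 of 10. Without mouse 1, 2 or 3 the MHC class II genes called higher numbered 3, 2 and 5. With library totals alone the numbers higher and lower were 5 and 7 for complement, 6 and 10 for the LXR list, 2 and 5 for the IGF2BP and IGF list and 3 and 1 for MHC class II. By limma on log2(TPM + 1) they were 3 and 11 for the G1 list, 3 and 8 for the iron and haem list and 2 and 11 for scavenger and apoptotic cell receptors.

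By annotated type, 673 of the 11720 tested protein-coding genes were called at least 2-fold higher and 711 lower, against 14 and 18 of 157 antisense genes and 8 and 12 of 142 long intergenic non-coding genes. Of all genes tested, 5.67% were called at least 2-fold higher and 6.2% lower. Reads of antisense genes may belong to the gene on the other strand.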
